A study of Mus musculus with 28 samples.

Results

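The genes described here are 10 genes for histone methyltransferases of lysine 4 or lysine 36 of histone H3, their subunits and a related SET domain protein: Kmt2a, Kmt2c, Kmt2d, Setd1a, Setd1b, Ash2l, Kmt2e, Setd2, Nsd1 and Ash1l. They were listed by symbol for their role, with earlier results of these data known. All 10 were present in the count tables of both batches, and all 10 passed the filter on low counts, among 16266 genes tested. RNA-seq was carried out on amygdala micropunches of 28 adult female C57BL6/J mice, which were housed singly and had 2 drinking tubes throughout. The 10 mice of the Water group had water alone. The 9 mice of the Acute Drinking group had a single access to 20% alcohol at the end of the drinking period, and the 9 mice of the Chronic Drinking group had 20% alcohol beside water every other day. Mice came in 2 batches, with 4 and 6 mice of the Water group, 4 and 5 of the Acute group and 3 and 6 of the Chronic group.

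Methylation of lysine 4 of histone H3 (H3K4) marks promoters and enhancers of active genes, and methylation of lysine 36 (H3K36) marks the bodies of genes as they are transcribed. The H3K4 enzymes work in large complexes that share a small core of subunits, Ash2l among them, whereas the H3K36 enzymes act largely on their own or with the elongating polymerase. In the brain these enzymes are known for their part in neuronal development and in memory, and several are required in adult neurons.

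The count tables held 20004380 to 22474159 counts per library in the Water group, 20117248 to 22548961 in the Acute group and 20135215 to 22569562 in the Chronic group. The 10 genes had 825 to 4634 counts in a mouse. Neuronal Snap25 was at 1371.8 to 1906.7 CPM (counts scaled to a common library size). Slc17a7 and Rspo2, which mark pallial excitatory neurons such as those of the basolateral amygdala, were at 792.4 to 1573.5 CPM and 19.2 to 39.5 CPM, and Prkcd, a marker of the central amygdala, was at 22.8 to 49.9 CPM. These markers were thus present in every mouse, but they are not confined to the subnuclei they stand for. Prkcd was also in the list of thalamus markers compared below. Ttr, a choroid plexus transcript, ran from 0.35 to 3902.8 CPM.

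All 10 are large genes spread over 7 chromosomes (build GRCm38, GENCODE M21). Kmt2a (ENSMUSG00000002028) lies on the minus strand at chr9:44803355-44881296, and Setd2 (ENSMUSG00000044791) on the plus strand of the same chromosome at chr9:110532597-110618633. Chromosome 5 carries 3 of them, with Kmt2c (ENSMUSG00000038056) at chr5:25271798-25498783 on the minus strand, Kmt2e (ENSMUSG00000029004) at chr5:23434441-23504235 on the plus strand and Setd1b (ENSMUSG00000038384) at chr5:123142193-123168629 on the plus strand. On the plus strand lie also Setd1a (ENSMUSG00000042308, chr7:127776670-127800122), Ash1l (ENSMUSG00000028053, chr3:88950622-89079375) and Nsd1 (ENSMUSG00000021488, chr13:55209782-55318325). Kmt2d (ENSMUSG00000048154, chr15:98831669-98871204) and Ash2l (ENSMUSG00000031575, chr8:25815996-25847694) lie on the minus strand. Their exons, merged over all annotated transcripts, add up to between 6795 bases in Setd1a and 20291 bases in Kmt2c, with a median of 13453 bases. Genes on the opposite strand overlap Kmt2a (AC061963.1), Kmt2c (Gm42585), Kmt2e (Srpk2), Setd1a (9430064I24Rik) and Ash1l (Dap3), and Gm49388 overlaps Setd1a on its own strand. The strand setting of the quantification was not given in the sources used here, so reads of overlapping transcripts may be shared.

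RefSeq promoters (GRCm38.p6, 250 bases before to 50 bases after the start) were found for 5 of the 10 genes, Kmt2a, Kmt2c, Kmt2d, Setd1a and Setd2. They are rich in CpG, with 27 to 56 CpG dinucleotides and 62.7% to 88.0% GC against medians of 7 and 52.7% over 32817 promoters. The GC box, searched as GGGCGG or its reverse complement CCGCCC with overlapping copies counted, occurs in 4 of the 5 and in 35.6% of all promoters, with 12 copies in Kmt2c, 7 in Setd2, 5 in Kmt2a, 4 in Kmt2d and 0 in Setd1a. CCACCC or its reverse complement occurs in 2 of the 5, those of Kmt2a and Setd1a, and in 31.5% of all promoters. None of the 5 holds TATAAA (13.6% of all promoters), CCAAT (37.4%), CCGGAAG (8.86%), AAGATGGC (2.74%) or the NRF1 motif (0.966%) on either strand. The promoters of Kmt2a (chr9:44881240-44881539, minus strand) and Kmt2c (chr5:25498734-25499033, minus strand) are shown because their transcripts varied together across mice, and that of Setd1a (chr7:127777139-127777438, plus strand) because it lacks the GC box. Capitals mark GC boxes.
Kmt2a: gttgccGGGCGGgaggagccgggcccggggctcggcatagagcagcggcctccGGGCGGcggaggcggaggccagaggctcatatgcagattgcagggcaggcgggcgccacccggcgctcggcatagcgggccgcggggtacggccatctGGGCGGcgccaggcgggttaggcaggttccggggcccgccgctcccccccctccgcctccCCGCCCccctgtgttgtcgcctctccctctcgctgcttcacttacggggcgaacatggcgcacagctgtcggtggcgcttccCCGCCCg
Kmt2c: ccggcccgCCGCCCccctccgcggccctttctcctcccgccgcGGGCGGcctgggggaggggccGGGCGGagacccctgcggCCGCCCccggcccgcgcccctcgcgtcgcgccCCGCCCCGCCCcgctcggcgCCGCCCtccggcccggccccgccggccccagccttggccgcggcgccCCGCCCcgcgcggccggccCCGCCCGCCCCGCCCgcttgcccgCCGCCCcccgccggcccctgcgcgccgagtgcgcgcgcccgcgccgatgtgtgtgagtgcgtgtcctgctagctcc
Setd1a: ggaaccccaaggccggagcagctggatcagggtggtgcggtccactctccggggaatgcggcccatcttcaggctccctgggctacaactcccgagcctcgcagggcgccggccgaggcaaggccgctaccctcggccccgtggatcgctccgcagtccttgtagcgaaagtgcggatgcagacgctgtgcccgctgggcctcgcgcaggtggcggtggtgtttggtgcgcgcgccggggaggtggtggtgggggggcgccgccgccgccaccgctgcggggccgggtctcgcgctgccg

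Levels of different genes were compared in the Water mice as CPM per kilobase of merged exons. Kmt2e, Ash1l, Kmt2a and Setd1a stood highest, with geometric means of 11.81, 11.57, 10.87 and 10.44 CPM per kilobase, and no neighbours among these 4 differed beyond their spread over the 10 mice. A gap beyond the spread followed, down to Setd2 (7.88), Nsd1 (7.54) and Kmt2d (7.10). After another such gap came Ash2l (5.20), Setd1b (4.93) and Kmt2c (4.55). Neighbours were taken as different when the gap of their mean log2 levels exceeded the sum of their SDs. The order depended on the length used, because merged exons count every annotated transcript. With the longest coding transcript in its place, Ash2l moved from rank 8 to rank 3 at 14.10 CPM per kilobase, Kmt2e stood alone at the top at 16.86, and Kmt2d, Setd1b and Kmt2c were the lowest 3 at 7.14, 6.71 and 6.16.

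Between the drinking groups and the Water group, no gene of the 10 was called at an adjusted p under 0.05 by edgeR's quasi-likelihood test. Over all 16266 genes the percentage called was 0 in the Acute and 0.0184 in the Chronic comparison. All 10 had a log2 fold change below zero in both comparisons, which share the Water mice, where 49.4% and 49.0% of all genes lay below zero. Their median log2 fold change was -0.11 in the Acute and -0.077 in the Chronic comparison, beside all-gene medians of 0.001 and 0.002. With 1 mouse left out the median ran from -0.12 to -0.088 in the Acute comparison, and from -0.12 (without Chronic mouse 2) to -0.054 (without Chronic mouse 1) in the Chronic. At an unadjusted p under 0.05, 4 were lower in the Acute group (Setd1b, Kmt2e, Ash1l and Setd2) against 4.45% of all genes, and 3 were lower in the Chronic group (Setd2, Kmt2e and Ash2l) against 5.65%. None of the 10 was higher at that p in either comparison, where 5.07% and 4.81% of all genes were. Since these genes vary together from mouse to mouse, the 10 values are not independent of each other. In these bulk samples, fewer cells of a type and less RNA per cell cannot be told apart.

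**Figure D1:**
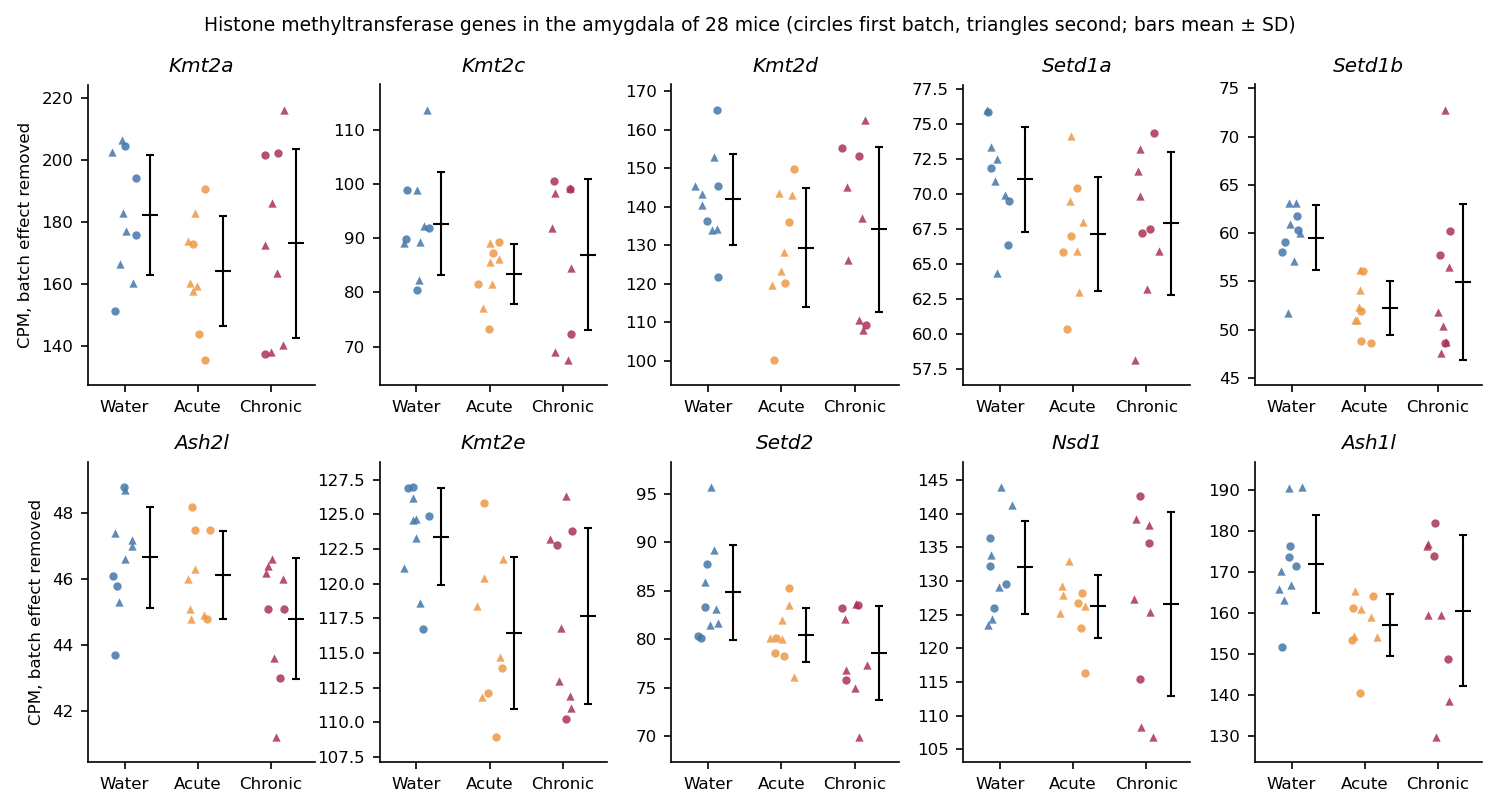
Level of each gene in each of the 28 mice, in CPM with the batch effect removed and on an axis of its own that does not start at 0, by drinking group. Points are mice, and bars give the mean and SD of a group. The 3 groups overlap for every gene, the 9 Acute mice all lie below the Water mean for Setd1b (59.5 CPM), and the Chronic SD in CPM exceeds the Water SD for every gene but Setd2.

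Setd1b, a catalytic subunit of the SET1 complexes that trimethylate H3K4 at promoters, had the lowest p of the 10 in the Acute comparison. Its level was 51.7, 60.2 and 63.1 CPM (lowest, median and highest mouse) in the Water group, 48.6, 51.9 and 56.2 CPM in the Acute group and 47.6, 51.8 and 72.8 CPM in the Chronic group. All 9 Acute mice lay below the Water mean, and 4 of them below every Water mouse, and the groups overlapped at 1 low Water mouse. The log2 fold change for Acute against Water was -0.19 (SE 0.059, unadjusted p = 0.00335, edgeR adjusted p = 0.384), and an exact permutation within batches gave p = 5.88e-04. In the Chronic group 7 of 9 mice were below the Water mean, while Chronic mouse 2 at 72.8 CPM was above every Water mouse. The log2 fold change there was -0.12 (SE 0.059, edgeR adjusted p = 0.495, exact permutation p = 0.0924), and -0.18 without Chronic mouse 2.

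Its paralog Setd1a, the other SET1-type catalytic subunit, was at 64.3, 71.4 and 76.0 CPM in the Water group, at 60.3, 67.0 and 74.1 CPM in the Acute group and at 58.1, 67.5 and 74.3 CPM in the Chronic group. The medians of both drinking groups were below that of the Water group, and most of the range was shared. The log2 fold changes were -0.083 (SE 0.042, edgeR adjusted p = 0.543, exact permutation p = 0.0502) and -0.066 (SE 0.042, adjusted p = 0.604, exact permutation p = 0.153) for Acute and Chronic against Water. Without Chronic mouse 6, the lowest of its group, the Chronic value for Setd1a was -0.041.

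Kmt2a, Kmt2c and Kmt2d encode mixed-lineage-type H3K4 methyltransferases. Kmt2a acts mainly at promoters, and Kmt2c and Kmt2d place the monomethyl mark at enhancers. Kmt2a was at 151.4, 179.9 and 206.4 CPM in the Water group, at 135.4, 160.2 and 190.6 CPM in the Acute group and at 137.3, 172.5 and 216.4 CPM in the Chronic group. Kmt2c was at 80.4, 90.9 and 113.7 CPM in the Water group, at 73.3, 85.6 and 89.2 CPM in the Acute group and at 67.5, 91.9 and 100.5 CPM in the Chronic group. The Chronic mice thus reached lower than any Water mouse for both genes without a clear shift of the median for Kmt2c. Kmt2d was at 121.9, 142.0 and 165.3 CPM in the Water group, at 100.2, 128.3 and 149.8 CPM in the Acute group and at 108.1, 137.1 and 162.7 CPM in the Chronic group. The log2 fold changes for Acute against Water were -0.15 for Kmt2a (95% interval -0.32 to 0.022), -0.15 for Kmt2c (-0.30 to 0.000) and -0.13 for Kmt2d (-0.29 to 0.027), all with edgeR adjusted p between 0.525 and 0.595. All 9 Acute mice lay below the Water mean for Kmt2c (exact permutation p = 0.0199), against 7 for Kmt2a (p = 0.0644) and 6 for Kmt2d (p = 0.0703). For Chronic against Water the log2 fold changes were -0.073, -0.091 and -0.081, with 5 of 9 mice below the Water mean for each gene and exact permutation p-values of 0.404, 0.291 and 0.306. These values depended on single mice. Without Chronic mouse 39 they were -0.032 for Kmt2a, -0.058 for Kmt2c and -0.043 for Kmt2d, and without Chronic mouse 2 those of Kmt2a and Kmt2d were both -0.12. Without Water mouse 4 that of Kmt2c was -0.052, and without Chronic mouse 1 or 3 all 3 values lay between -0.055 and -0.038. These 3 genes had wide intervals, since their SD between mice (0.17 to 0.20 in log2 CPM, batch and group removed) exceeded the median of 0.14 over all genes.

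Ash2l, the core subunit shared by the H3K4 methyltransferase complexes, was the steadiest of the 10, with an SD between mice of 0.051 in log2 CPM, near the 0.048 that counting error alone gives at its median of 918.5 counts. For Kmt2a the same values were 0.20 and 0.024. Ash2l was at 43.7, 46.8 and 48.8 CPM in the Water group, at 44.8, 46.0 and 48.2 CPM in the Acute group and at 41.2, 45.1 and 46.6 CPM in the Chronic group. The Acute mice lay within the Water range, and all 9 Chronic mice were below the Water mean. The log2 fold change was -0.016 for Acute against Water (95% interval -0.072 to 0.039, edgeR adjusted p = 0.886, exact permutation p = 0.428; -0.028 to -0.008 with 1 mouse left out) and -0.058 for Chronic against Water (-0.11 to -0.003, adjusted p = 0.451, exact permutation p = 0.0232).

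Kmt2e carries a SET domain for which no methyltransferase activity is well established, and it binds trimethylated H3K4 through its PHD finger. Its level was 116.7, 124.7 and 127.0 CPM in the Water group, 108.9, 114.7 and 125.8 CPM in the Acute group and 110.2, 116.8 and 126.3 CPM in the Chronic group. Water mice were tightly grouped, with a coefficient of variation of 2.9%, and 8 of 9 Acute and 7 of 9 Chronic mice lay below their mean. The log2 fold changes were -0.084 (SE 0.031, edgeR adjusted p = 0.457, exact permutation p = 0.00724) for Acute and -0.068 (SE 0.031, adjusted p = 0.434, exact permutation p = 0.0317) for Chronic against Water.

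Setd2, the enzyme that trimethylates H3K36 along transcribed genes, had the lowest p of the 10 in the Chronic comparison. It was at 80.1, 83.2 and 95.7 CPM in the Water group, at 76.1, 80.1 and 85.3 CPM in the Acute group and at 69.9, 77.4 and 83.6 CPM in the Chronic group. All 9 Chronic mice were below the Water mean and 5 of them below every Water mouse. Of the Acute mice 8 were below the mean and 6 below every Water mouse, with overlap in both groups. The count of 6 is on unrounded values, as some of these mice equal the lowest Water mouse at 80.1 CPM once rounded. The log2 fold change for Chronic against Water was -0.11 (SE 0.036, unadjusted p = 0.00454, edgeR adjusted p = 0.252, exact permutation p = 0.011). That for Acute against Water was -0.077 (SE 0.036, adjusted p = 0.502, exact permutation p = 0.028).

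Ash1l, which dimethylates H3K36 and counters Polycomb repression, was at 151.6, 171.0 and 190.9 CPM in the Water group, at 140.4, 159.0 and 165.3 CPM in the Acute group and at 129.6, 159.6 and 182.1 CPM in the Chronic group. Every Acute mouse was below the Water mean, and the Chronic mice covered nearly the whole Water range and reached beneath it. The log2 fold changes were -0.13 (SE 0.054, edgeR adjusted p = 0.468, exact permutation p = 0.00594) and -0.10 (SE 0.054, adjusted p = 0.518, exact permutation p = 0.132), the latter -0.066 without Chronic mouse 1. Nsd1, which places mono- and dimethyl marks on H3K36, was at 123.5, 130.8 and 144.0 CPM in the Water group, at 116.4, 126.7 and 133.0 CPM in the Acute group and at 106.8, 127.4 and 142.7 CPM in the Chronic group. Its differences were small beside the range of each group, with log2 fold changes of -0.065 (95% interval -0.16 to 0.032, edgeR adjusted p = 0.674, exact permutation p = 0.0571) and -0.061 (-0.16 to 0.036, adjusted p = 0.683, exact permutation p = 0.276), the latter -0.035 without Chronic mouse 1 and -0.033 without Chronic mouse 3. The exact p-values of the 10 genes, 30 in all with Chronic against Acute, are single-gene values without adjustment.

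**Figure D2:**
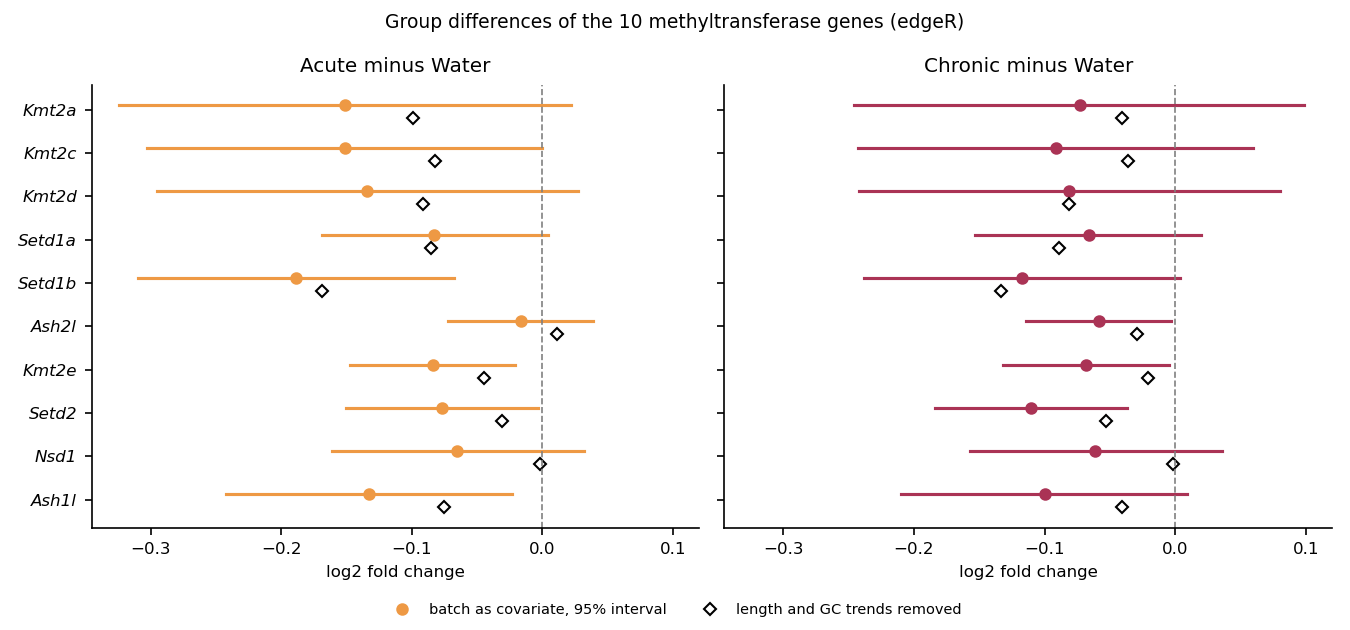
Log2 fold change of each gene against the Water group for the Acute (left) and Chronic (right) groups. Filled points and bars are the edgeR estimates and 95% intervals with batch as a covariate, and open diamonds the estimates after each mouse's trend of counts on exonic length and GC content was removed. All 10 filled points lie below zero in both panels, and the diamond of Setd1b stays the farthest from zero, at -0.17 and -0.13.

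Chronic and Acute mice were compared directly. The authors reported a higher alcohol intake in the Chronic group on the last day, so the number of accesses and the last intake cannot be told apart. No gene of the 10 was called or reached an unadjusted p under 0.05, where the percentage of all genes called was 0 and 4.44% had an unadjusted p under 0.05. The log2 fold changes ran from -0.042 for Ash2l (95% interval -0.099 to 0.015) to 0.078 for Kmt2a (-0.10 to 0.26), with 2 of 10 below zero (50.6% of all genes) and edgeR adjusted p of 0.998 or more. Intervals were narrowest for Ash2l and Kmt2e (-0.049 to 0.081) and widest for Kmt2a. With 1 mouse left out the value of Kmt2a ran from 0.032 (without Chronic mouse 2) to 0.12 (without Chronic mouse 39), and that of Setd1b went from 0.072 to 0.014 without Chronic mouse 2.

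The batches gave the same direction for most genes. For Acute against Water the log2 fold changes in the first and the second batch were -0.22 and -0.17 for Setd1b, -0.13 and -0.17 for Kmt2c, -0.12 and -0.14 for Ash1l and -0.11 and -0.070 for Kmt2e. Of the 10, only Ash2l had opposite signs, at 0.025 and -0.052. For Chronic against Water most differences were nearer to zero in the first batch, with a median of -0.028 over the 10 genes against -0.11 in the second. Setd2 was at -0.036 and -0.15, Ash1l at -0.001 and -0.16, and Setd1b at -0.11 and -0.12, while Kmt2c (0.007) and Nsd1 (0.004) lay just above zero in the first batch, which held 3 Chronic mice. The difference between batches was tested with a group by batch interaction. None of the 10 was called or had an unadjusted p under 0.05, beside 0% and 0.00615% of all genes called for the Acute and the Chronic effect and 4.13% and 6.15% with an unadjusted p under 0.05.

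Most of the 10 transcripts varied together from mouse to mouse within groups. Over the 28 mice, on log2 CPM with batch and group effects removed, the 45 pairs had a median Pearson r of 0.59, and 37 pairs were above 0. Kmt2c with Nsd1 (0.95), Kmt2c with Ash1l (0.94), Kmt2a with Kmt2d (0.94) and Ash1l with Nsd1 (0.93) were the most alike. H3K4 and H3K36 writers thus did not separate into groups by their mark. Setd1a (median r of 0.50 with the others), Kmt2e (0.54) and Setd1b (0.56) followed less closely. Ash2l stood apart, with a median r of -0.22 and its lowest value, -0.48, with Setd1b, and, as given above, a spread close to counting error. All pairs share libraries and depth, and these r are descriptions.

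**Figure D3:**
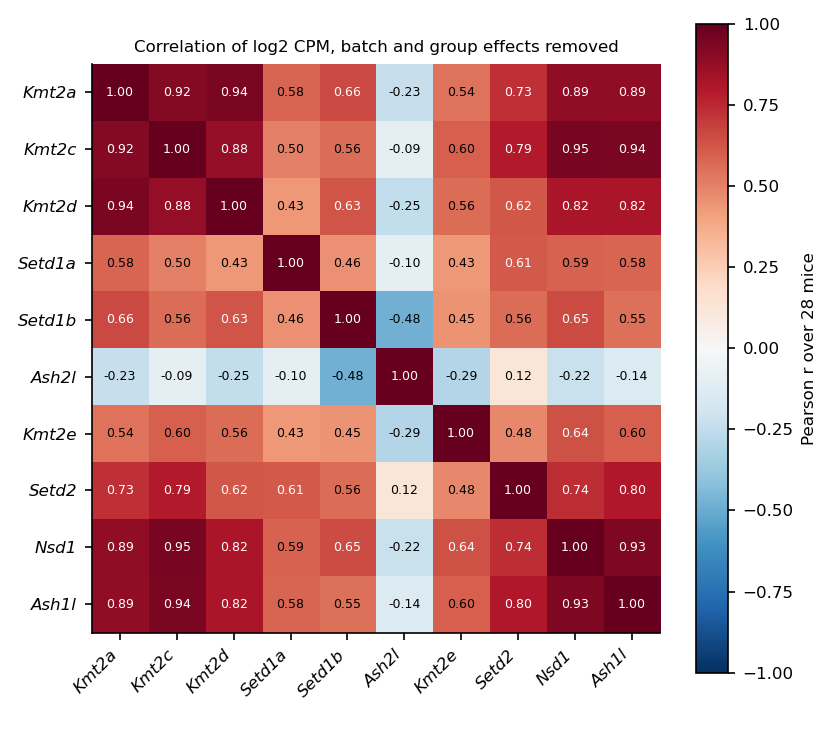
Pearson correlation of log2 CPM between each pair of the 10 genes over the 28 mice, with batch and group effects removed. Colour runs from -1 (blue) to 1 (red). A block of high values joins Kmt2a, Kmt2c, Kmt2d, Nsd1 and Ash1l, and the row of Ash2l with the other genes is at or below 0.12.

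Among the 5 genes most like the 10 by mean r, out of all genes tested that are not members, were Wdfy3 (mean r 0.70, mean rho 0.69), Nf1 (0.69 and 0.69), Trrap (0.69 and 0.70) and Srrm2 (0.69 and 0.68), over the same 28 mice. The median over all genes was -0.03. These 4 transcripts are long as well, with merged exons of 15346, 15850, 20859 and 12842 bases.

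In the Chronic group the same mice were low or high for several of the 10 genes, though not for Ash2l, which was lowest in Chronic mouse 2 (41.2 CPM) and highest in Chronic mouse 3 (46.6 CPM), or for Setd1a, which was lowest in Chronic mouse 6 (58.1 CPM). Kmt2a was at 138.0, 140.2 and 137.3 CPM in Chronic mice 1, 3 and 39, each below the lowest Water mouse, and at 216.4, 201.8 and 202.3 CPM in Chronic mice 2, 37 and 38. Kmt2c was at 67.5, 69.0 and 72.4 CPM in the first 3 of these mice and at 99.2, 99.1 and 100.5 CPM in the others. Nsd1 was at 108.4, 106.8 and 115.5 CPM against 139.2, 135.7 and 142.7 CPM. The high mice were named by Kmt2a, and Chronic mouse 5, at 186.3 CPM for Kmt2a, was about as high for Kmt2c (98.4 CPM) and Nsd1 (138.3 CPM). The low mice came from both batches, 2 from the second and 1 from the first, and so did the high mice. The SD of log2 CPM was larger in the Chronic than in the Water group for all 10 genes, with a median ratio of 1.70 (highest 2.35), where 48.8% of all genes had a ratio above 1 and the all-gene median was 0.99. Against the Acute group the ratio was also above 1 for all 10 genes (median 1.70), beside 54.5% of all genes. Because these genes move together, the 10 ratios are not 10 separate observations, and the difference in spread was not tested.

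By merged exons the 10 genes have 6795 bases or more, and group differences over all genes followed exonic length. Among the 884 genes with at least 12 kb of exons, which include 6 of the 10 (Kmt2a, Kmt2c, Kmt2d, Setd1b, Ash1l and Nsd1), the median log2 fold change was -0.062 in the Acute and -0.061 in the Chronic comparison, and 83.8% and 81.0% of these genes were below zero. Among the 687 genes under 1 kb the medians were 0.030 and 0.045. In the Acute comparison 5 of the 6 lay below the lower quartile of their length class (-0.10), and Nsd1 at -0.065 lay near its median. In the Chronic comparison Setd1b at -0.12 and Ash1l at -0.10 lay at or beyond the lower quartile of -0.10, and the other 4 within the quartiles. Of the 884 genes, 17.5% and 19.5% had an unadjusted p under 0.05 and a lower level, against 2 of these 6 members (Setd1b and Ash1l) in the Acute and none in the Chronic comparison. Kmt2e, Setd2 and Ash2l belong to the 1833 genes with 8 to 12 kb of exons, whose medians were -0.032 and -0.029. Of these 1833 genes, 10.3% in the Acute and 12% in the Chronic comparison were lower at an unadjusted p under 0.05. So were Kmt2e and Setd2 in the Acute comparison, and Kmt2e, Setd2 and Ash2l in the Chronic. Setd1a belongs to the 2120 genes with 6 to 8 kb, whose medians were -0.013 and -0.015. In that class 6.08% and 8.44% were lower at that p, and Setd1a was not among them. Whether the members differ in these shares from genes of like length was not tested. Setd1a at -0.083 and -0.066 lay below the lower quartile of its class (-0.058 and -0.060) in both comparisons, as did Setd2 and Kmt2e in the Acute comparison (quartile -0.074) and Setd2 in the Chronic (quartile -0.073).

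**Figure D4:**
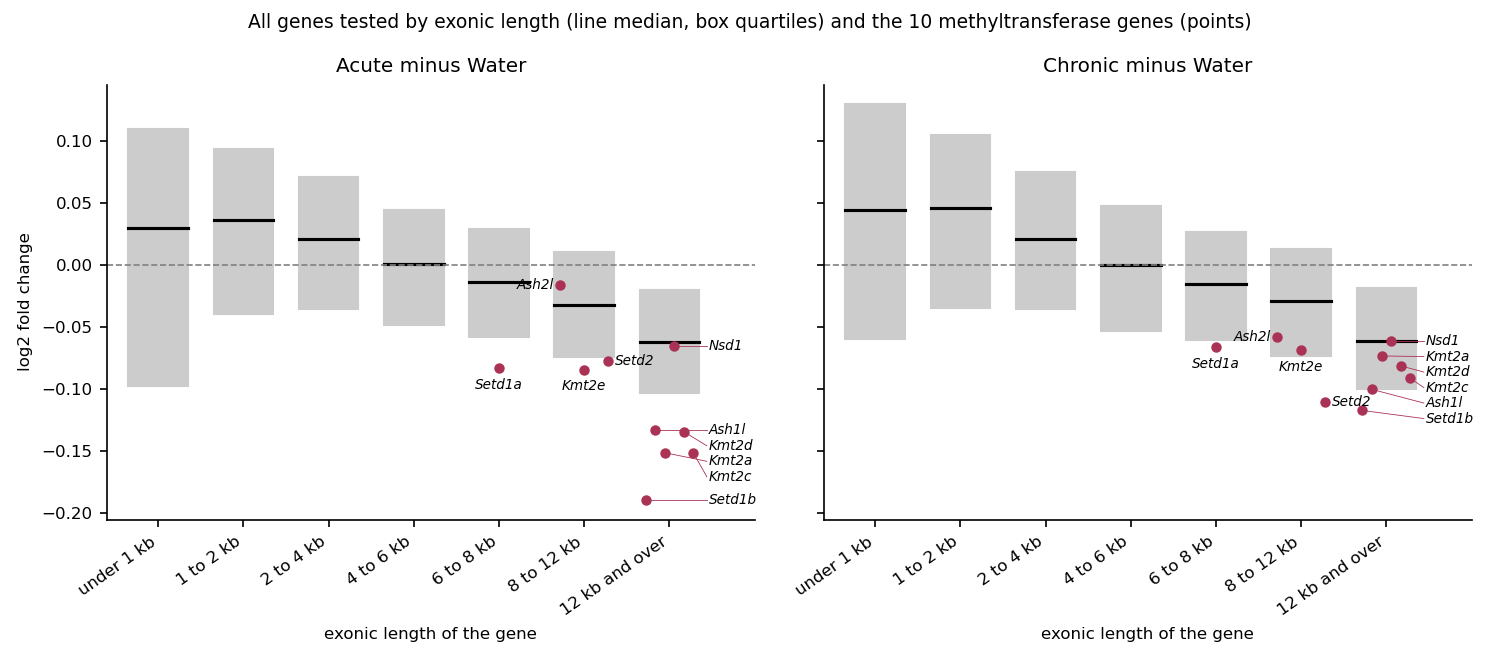
Log2 fold change against the Water group by exonic length of the gene, for all 16266 genes tested (line, median; box, quartiles) and for the 10 genes (points, shifted sideways within their class for legibility). The medians are highest in the 1 to 2 kb class (0.037 in the Acute and 0.046 in the Chronic comparison) and lowest at 12 kb and over (-0.062 and -0.061), and the points of Setd1a, Setd1b and Setd2 lie under the boxes of their classes in both panels.

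The same trend was measured in each mouse as the slope of log2 CPM on log2 exonic length, relative to the mean profile of its batch. The slope was -0.0044, 0.0085 and 0.0520 (lowest, median and highest, in log2 units per doubling of length) in the Water group, -0.0195, -0.0100 and 0.0181 in the Acute group and -0.0592, -0.0024 and 0.0204 in the Chronic group. Groups overlapped, and 8 of 9 mice of each drinking group lay below the Water mean. The difference from Water was -0.0189 for Acute (exact permutation p = 0.0162) and -0.0211 for Chronic (exact permutation p = 0.0404). With the longest coding transcript as the length the Chronic difference was -0.0249 and no longer passed (exact permutation p = 0.061). Chronic against Acute differed by -0.0018 (exact permutation p = 0.852). Across mice, with group and batch removed, the mean deviation of the 10 genes went with the slope (r = 0.72, rho = 0.74, n = 28 mice). Without the 2 mice farthest in slope r was 0.62, and it was 0.76 within the first batch and 0.74 within the second. The 10 genes are themselves among those that set the slope, and both measures come from the same libraries, so r is a description. By gene it ran from 0.02 for Ash2l and 0.35 for Setd1b to 0.82 for Ash1l.

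**Figure D5:**
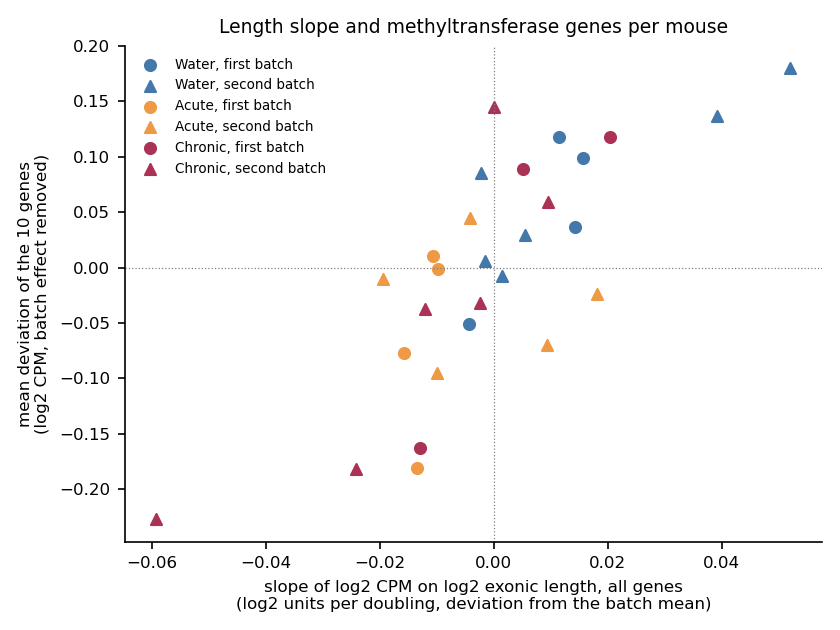
Mean deviation of the 10 genes (vertical, log2 CPM with the batch effect removed) against the slope of all genes on exonic length (horizontal) in each of the 28 mice, before group effects were removed. Colours are groups, circles the first and triangles the second batch. Chronic mouse 1 (slope -0.0592) lies lowest and Water mouse 4 (slope 0.0520) highest on both axes.

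When the trends on exonic length and GC content were removed from each mouse, the median log2 fold change of the 10 genes was -0.078 in the Acute and -0.041 in the Chronic comparison, beside all-gene medians of 0.004 and 0.005. Setd1b was at -0.17 (unadjusted p = 9.84e-04) and -0.13 (unadjusted p = 0.00694), close to its values without this step. Setd1a was at -0.085 (unadjusted p = 0.0439) and -0.089 (unadjusted p = 0.0356). Ash1l in the Acute comparison was at -0.075 (unadjusted p = 0.0342) and Setd2 in the Chronic at -0.053 (unadjusted p = 0.0473). Setd2 in the Acute comparison went to -0.031 (edgeR unadjusted p = 0.240) and Kmt2c there to -0.082 (edgeR unadjusted p = 0.0854). In the Chronic comparison Ash2l went to -0.029 (edgeR unadjusted p = 0.327). Nsd1 was at -0.002 in both, and Kmt2e at -0.045 and -0.021. None of the 10 was called by edgeR after this step, which called 0 and 1 of all 16266 genes and left 1265 and 1073 with an unadjusted p under 0.05. This step removed length and GC content together, so the part of length alone in the group differences was not tested.

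Genes that work with or against these enzymes were taken as 5 lists. None of the 70 tested was called in any comparison. The list counts stand beside 4.45% of all genes lower and 5.07% higher at an unadjusted p under 0.05 in the Acute comparison, and 5.65% and 4.81% in the Chronic. Of the partners in H3K4 complexes, 15 of 16 could be tested (Cxxc1 was listed in the second batch alone). At an unadjusted p under 0.05, 3 were lower and 1 higher in the Acute group, and 3 lower in the Chronic group, with medians of -0.025 and -0.032. Hcfc1, a subunit of the SET1 complexes, was at -0.11 and -0.10 (unadjusted p = 0.00424 and 0.00626). Kmt2b, the close paralog of Kmt2a, was at -0.095 (p = 0.0184) and the coactivator Ncoa6 at -0.11 (p = 0.0122) in the Acute group, while the core subunit Dpy30 was higher, at 0.13 (p = 0.0332). In the Chronic group the H3K27 demethylase Kdm6a was at -0.10 (p = 0.0171) and the SET1 partner Bod1l at -0.097 (p = 0.0464).

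Among 12 other H3K36 writers and their partners, 2 were lower and 1 higher in the Acute group and 2 lower in the Chronic group, with medians of -0.018 and -0.037. Nsd2, the paralog of Nsd1, was at -0.092 (unadjusted p = 0.0337) and -0.11 (p = 0.0166). Cdc73 of the PAF1 elongation complex was at -0.12 (p = 0.0101) and Morf4l1, a reader of H3K36 methylation, at 0.064 (p = 0.0403) in the Acute group, and Setd5 was at -0.084 (p = 0.0141) in the Chronic group. Of 12 demethylases that remove these marks, 3 were lower in the Acute and 4 in the Chronic group, none was higher, and the medians were -0.042 and -0.043. Kdm2a, an H3K36 demethylase, was at -0.13 (p = 0.00157) and -0.085 (p = 0.0266), and Kdm5b, an H3K4 demethylase, at -0.087 (p = 0.0170) and -0.10 (p = 0.00634). Kdm2b was at -0.10 (p = 0.0391) in the Acute group, and Kdm5a at -0.12 (p = 0.0254) and Kdm4c at -0.088 (p = 0.00637) in the Chronic group. Writers and erasers of the same marks thus had medians on the same side of zero.

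Of 15 tested readers of these marks (of 16, with Phf1 listed in the second batch alone), none reached an unadjusted p under 0.05 in the Acute group and 1, Mtf2, was lower in the Chronic group (-0.10, p = 0.0271), with medians of -0.029 and -0.032. Of 16 other histone lysine methyltransferases, the H3K9 enzyme Ehmt1 was lower in the Acute group (-0.075, p = 0.0283) and its partner Ehmt2 higher in the Chronic group (0.068, p = 0.0328), with medians of -0.049 and -0.039. Between Chronic and Acute mice, 2 of the 70 genes had an unadjusted p under 0.05, against 4.44% of all genes, the demethylase Kdm4c (-0.069, p = 0.0328) and the reader Ing5 (-0.13, p = 0.0100). These 2 were named for that comparison after their values were seen. The median exonic lengths of these 5 lists were 5485 to 8877 bases, shorter than the 13453 bases of the 10 genes.

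Markers of cell types and neighbouring regions were compared over the same mice. Of 11 lists in 33 comparisons none differed at an adjusted p under 0.05 (exact permutation, lowest adjusted p = 0.756). The central amygdala list, 8 of 8 genes tested, was the 1 with an unadjusted p under 0.05, at 0.25 in log2 units for Acute against Water (exact permutation p = 0.0229), with mice from -0.19 to 0.41 in the Acute and from -0.55 to 0.14 in the Water group. The neuron list, 10 of 10 tested, differed by 0.038 (p = 0.082, exact permutation) and 0.017 (p = 0.326) for Acute and Chronic against Water. The part of cell composition in the values of the 10 genes was not tested.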

How the data were processed

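Gene counts of 28 mice were analysed. The authors quantified the reads with Salmon (0.14.1; FastQC 0.11.8) on GRCm38, per the labels, and deposited whole-number counts per gene and mouse in 1 table for each batch, before normalization or batch adjustment. Groups were taken from the labels. The tables share 49477 gene identifiers, with 574 only in the first and 1596 only in the second. Genes averaging 10 or more counts per mouse were tested with edgeR 4.0.16 (quasi-likelihood, TMM, batch as a covariate, all 3 groups) in R 4.3.3. P-values were 2-sided and adjusted by Benjamini-Hochberg over 16266 genes, and genes with an adjusted p under 0.05 were called. Levels are TMM-normalised CPM, with the batch effect removed by a linear model that kept the group (limma 3.58.1, prior count 2). Exact p-values came from all regroupings within batches, 32340 against Water and 16170 for Chronic against Acute, so the smallest possible p was far under 0.05. The edgeR fit, the exact permutation test and the offsets were tested on simulated data. No deposited column was left out, and no 2 libraries of a group were alike within sampling noise.

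The 10 genes and the lists were chosen with earlier results of these data known. The text names the 10 genes, genes of the 5 partner lists with an unadjusted p under 0.05 against Water (Ing5 was added outside this rule), and the 5 non-members with the highest mean r, of which 1 is not reported here. Marker lists covered neurons, astrocytes, oligodendrocytes, OPC, microglia, endothelial cells, pallial excitatory neurons, central amygdala, striatum, thalamus, and choroid plexus with ependyma. Alternatives were RLE normalization, no filter or a minimum mean of 100 counts, DESeq2 1.42.0 with batch as a covariate or after ComBat-seq (sva 3.50.0), limma-voom, each batch alone, a replicate block, length and GC offsets (natural splines, 4 degrees of freedom per mouse), fits of the groups compared alone and fits without each mouse. The slope with the longest coding transcript and the exact p-values under RLE were added after the data were seen.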

Additional observations from a re-analysis of the deposited data

Results flagged for a closer look

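Each gene's level was checked for a single far mouse in each group by Dixon's test at the 95% level, 33 groups in all with the length slope included, of which chance flags about 1 in 20. The check picked out 2. Setd1b was at 51.7 CPM in Water mouse 1, apart from the other 9 Water mice, which lay at 57.1 CPM or above. Ash1l was at 140.4 CPM in Acute mouse 33, apart from the other 8 Acute mice, which lay at 153.3 CPM or above. The same mouse was also the lowest of the Acute group for Kmt2a (135.4 CPM), Kmt2c (73.3 CPM), Kmt2d (100.2 CPM), Nsd1 (116.4 CPM), Setd1a (60.3 CPM) and Setd1b (48.6 CPM).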

How the results depend on the processing

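No gene of the 10 was called under any alternative, with lowest adjusted p-values of 0.138 (Acute) and 0.109 (Chronic) after ComBat-seq and DESeq2, which called 30 and 88 genes in all, against 0 and 3 by edgeR. With batch in the model, DESeq2 called 8 and 36 genes in all, and limma-voom 3 and 2. Of 800 alternative log2 fold changes against Water, 795 kept their direction and their side of the threshold. For each comparison 280 of them came from fits without 1 mouse, which share nearly all mice with the fit of all 28. As no gene of the 10 was called to begin with, staying on the same side says little. The number of the 10 genes with an unadjusted p under 0.05 in the Acute comparison went from 4 (all genes: 1549 of 16266) to 1 in the first (1172 of 16257) or the second batch alone (814 of 16264), to 7 with the 2 groups alone (1604 of 16266), and to between 3 and 7 when 1 mouse was left out, with 7 without Water mouse 42. In the Chronic comparison it went from 3 (1702 of 16266) to 1 without a filter on low counts (2571 of 33467), to 0 in the first batch alone (572 of 16257), and to between 1 and 4 when 1 mouse was left out, with 1 without Chronic mouse 1 or without Water mouse 2. The cause was not tested. The sign turned for Ash2l in the Acute comparison (0.025 in the first batch, 0.011 with offsets, 0.012 with block and offsets) and, in the first batch, for Kmt2c (0.007) and Nsd1 (0.004) in the Chronic. Chronic against Acute turned for Setd2 (0.006) in the first batch, for Kmt2e (-0.003), Setd1a (-0.022), Ash1l (-0.017) and Nsd1 (-0.046) in the second, for Nsd1 (-0.006) with the block and (-0.002) with block and offsets, for Setd1a (-0.004) and Nsd1 (-0.000) with offsets, and when 1 mouse was left out for Nsd1 (range -0.021 to 0.031, below zero in 6 of 28 fits) and Setd1a (range -0.001 to 0.041). Mice of the second batch with the same replicate number had a median r of -0.008, with 4 of 16 pairs above 0.1. These included every pair of number 5 (0.150, 0.338 and 0.222). Pairs of unlike number were not compared, so a pairing by number was not tested. A replicate block gave 5, 4 and 0 of the 10 genes at an unadjusted p under 0.05 (1390, 1675 and 780 of 16266) and changed no call. With the longest coding transcript as the length, the Chronic slope difference was -0.0249 (exact permutation p = 0.061). At this depth counting error was under the spread between mice, though close to it for Ash2l. The lists and genes were known beforehand from these mice, batch and individual mice moved the counts above, and no protein or histone mark was measured.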
